A study of Mus musculus with 4 samples.

Results

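The genes described here are 29 genes of cholesterol synthesis, sterol sensing and sterol handling, grouped around SREBP2, the transcription factor that raises cholesterol synthesis when cell sterols are low. They were chosen by name from the 32227 genes of the feature lists, and all 29 were present. The members comprised 19 synthesis enzymes, 4 sterol-sensing genes (Srebf2, Scap, Insig1 and Insig2), the intracellular sterol carrier gene Stard4, the uptake gene Npc1l1, the efflux genes Abca1, Abcg5 and Abcg8, and the esterification gene Soat2.

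Single-cell RNA sequencing was performed on epithelium from jejunum and ileum of 2 WT mice at postnatal day 6 (P6). Both regions were taken from each mouse, which gave 4 libraries and 2 per region. Replicate 1 was the mouse labelled male in batch 1 and replicate 2 the mouse labelled female in batch 2, so mouse, labelled sex and batch cannot be told apart. The epithelium was released with EDTA and dissociated with dispase before PIPseq, a droplet method in which each RNA molecule receives a unique molecular identifier (UMI), so that a UMI count is a number of captured molecules. The study's methods give its wild type line as C57BL/6J and food as freely available, and state no feeding time for these pups.

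Cholesterol is built from acetyl-CoA through mevalonate and isoprenoid intermediates to squalene, which is closed to lanosterol and then trimmed and reduced to cholesterol. SREBP2 is held in the endoplasmic reticulum by the INSIG proteins when sterols are abundant. It is carried to the Golgi by SCAP and cleaved when they are scarce, and its fragment then switches on nearly every enzyme of the route. The small intestinal epithelium both makes cholesterol and absorbs it from the lumen: NPC1L1 takes it up at the apical membrane, SOAT2 esterifies it for export in lipoproteins, and ABCG5 with ABCG8 returns sterols to the lumen.

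The 4 libraries held 36202 called cells and 378810858 UMIs, 256467504 from the ileum and 122343354 from the jejunum, and 30521 cells were kept. Median depth was 12048 and 10916 UMIs per kept ileal cell against 4690 and 5884 per jejunal cell. Mitochondrial genes took a median of 3.61% and 3.74% of ileal UMIs against 6.37% and 9.94% of jejunal UMIs, so depth and mitochondrial share went with region. Xist, expressed from the inactive X chromosome, was at 537 and 467 CPM (UMIs of a gene scaled to a library total of 1000000) in the libraries labelled male and under 1 CPM in those labelled female, and the Y-linked gene Eif2s3y showed the opposite, so all 4 libraries went against their sex labels. The 2 libraries of each mouse stayed together, and no region comparison below used the labelled sex. Across libraries 2 barcodes were shared, none of them among kept cells.

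Of 23 clusters, 17 formed the enterocyte-like class. It held 6736 and 7940 ileal and 8339 and 5095 jejunal cells (pairs of values are given as replicate 1, then replicate 2). Its clusters qualified for no other type and had at least 3 enterocyte markers each detected in at least 50% of cells. The mean log2 difference of those markers from all other cells had to lie above -1. Enterocyte markers did not have to be among the leading genes of a cluster, and in many they were not. The stem/progenitor-like class, which stands for the crypt, held 406 and 402 ileal and 432 and 396 jejunal cells. All 12 enterocyte markers and all 14 stem and progenitor markers were detected in every sum. Levels below are CPM of the UMIs summed over the cells of a class in a library. The summed level of the 12 enterocyte markers was itself lower in ileal enterocyte-like cells, at 13465 and 16344 CPM against 33158 and 34502 CPM in the jejunum. In the same sums the 12 immune markers reached 260 and 223 CPM in the ileum against 136 and 82.1 CPM in the jejunum, with Nkg7 at 0 in 3 libraries. The 8 goblet markers, all detected, reached 196 and 167 CPM against 80.9 and 71.3 CPM. The 8 Paneth markers, all detected, were lower, at 19.02 and 16.3 CPM against 36.5 and 22.6 CPM. Their part in the differences described below was not tested.

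Enterocyte-like cells of the ileum carried far more mRNA for cholesterol synthesis than those of the jejunum. The 19 enzymes together reached 1651 and 1314 CPM in the ileum against 496 and 376 CPM in the jejunum. Of the 29 members, 18 were called higher in the ileum and 1 lower at an adjusted p under 0.05 by edgeR's quasi-likelihood test, where 4.11% and 3.04% of the 19754 genes tested were called higher and lower. The 18 were 15 enzymes, Srebf2, Insig1 and Stard4, and the 1 called lower was Soat2. Both ileal libraries lay above both jejunal ones for 23 members and below them for 4, a separation that 37.6% and 24.4% of all genes tested showed in the same directions. The median log2 fold change over the 19 enzymes was 1.74, beside -0.01 over all genes tested. A fold in pooled molecules does not tell fewer expressing cells from less RNA per cell. In the plot of member levels, the ileal and jejunal points part for the enzymes in enterocyte-like cells and lie close together in stem/progenitor-like cells.

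**Figure D1:**
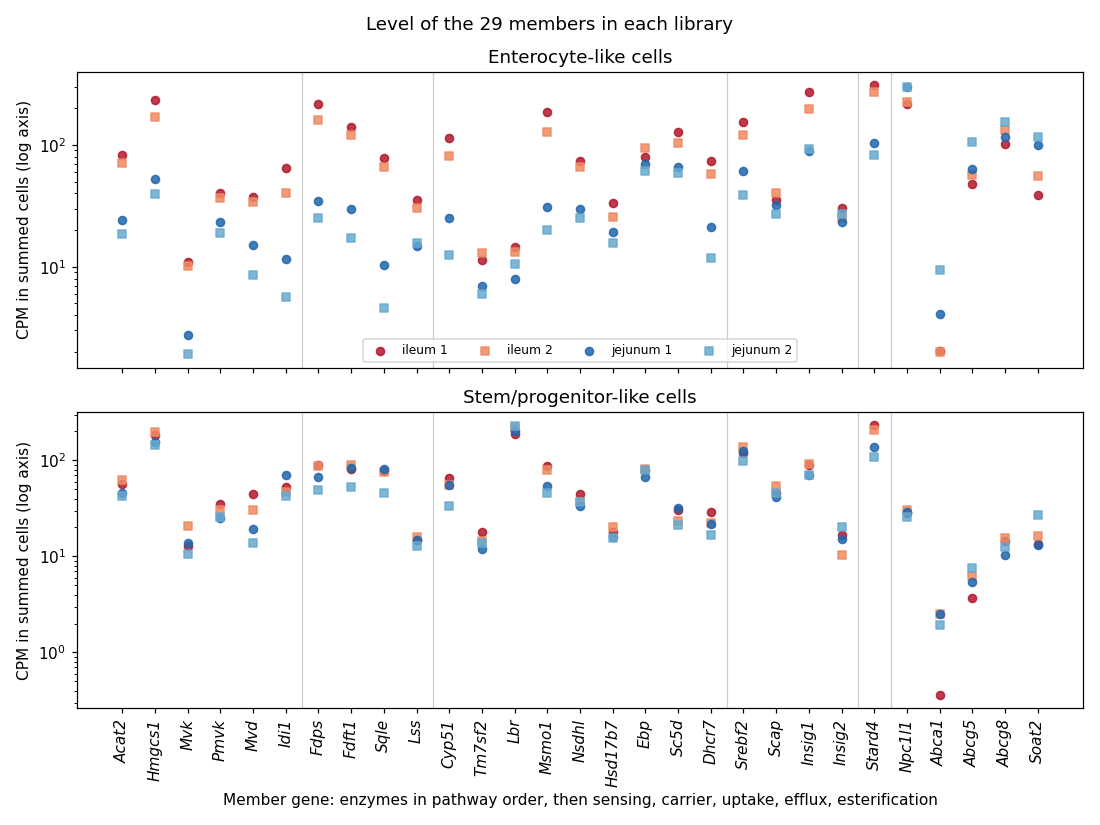
CPM of each of the 29 members (log axis) in the summed enterocyte-like cells (top) and stem/progenitor-like cells (bottom), with 1 point per library. In enterocyte-like cells both ileal points lie above both jejunal points for all 19 enzymes; in stem/progenitor-like cells this holds for 11 of 19.

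The mevalonate stage leads from acetyl-CoA to the isoprenoid units, and its 6 measured enzymes were all called higher in ileal enterocyte-like cells. Acat2, the cytosolic thiolase that opens the route and a different gene from the acyltransferase Soat2, was at 82.6 and 70.7 CPM in the ileum against 24.0 and 18.5 CPM in the jejunum (log2 fold change 1.74 ± 0.16 SE, adjusted p = 0.0152 by edgeR). Hmgcs1, the synthase of the next step, was at 235 and 168 CPM against 52.8 and 39.2 CPM (2.01 ± 0.21, adjusted p = 0.0170 by edgeR). Both kept the ileal libraries clear of the jejunal ones. The kinases Mvk and Pmvk phosphorylate mevalonate in turn. Mvk was at 10.96 and 10.1 CPM against 2.77 and 1.91 CPM, with a log2 fold change of 2.06 ± 0.22 (SE). Pmvk differed least of the stage, at 40.0 and 36.7 CPM against 23.3 and 18.9 CPM (0.75 ± 0.15, adjusted p = 0.0456 by edgeR). Mvd, the decarboxylase, and Idi1, the isomerase that makes both isoprenoid units available, complete the stage. Mvd was at 37.5 and 33.8 CPM against 15.2 and 8.59 CPM, a log2 fold change of 1.48 ± 0.26. Idi1 was at 64.0 and 40.3 CPM against 11.5 and 5.64 CPM, a log2 fold change of 2.49 ± 0.37. Relative to its level, Idi1 had the widest gap between the mice of these 6 enzymes in both regions.

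The squalene stage showed the highest median, 2.45 on the log2 scale against 1.88 for the mevalonate stage and 0.81 for the sterol stage. Fdps, which joins isoprenoid units to farnesyl diphosphate, was at 216 and 158 CPM in the ileum against 34.6 and 25.1 CPM in the jejunum (2.54 ± 0.21, adjusted p = 0.0135 by edgeR). Fdft1 condenses farnesyl diphosphate to squalene, the first intermediate committed to sterols. It was at 141 and 119 CPM against 29.9 and 17.1 CPM (2.36 ± 0.27). Sqle, the squalene epoxidase and a rate-limiting step of the route, had the largest difference of all 29 members. It was at 78.3 and 65.9 CPM against 10.3 and 4.60 CPM, 9.67 times higher in the ileum by region means (3.17 ± 0.37 on the log2 scale, adjusted p = 0.0189 by edgeR). Lss, which closes the ring to give lanosterol, differed less, at 35.5 and 30.2 CPM against 14.9 and 15.7 CPM (0.99 ± 0.15, adjusted p = 0.0262 by edgeR).

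The sterol stage was mixed: 5 of its 9 enzymes were called higher in the ileum and 4 were not called. The C14 demethylase Cyp51 was at 113 and 81.4 CPM against 25.1 and 12.4 CPM (2.26 ± 0.34). The C4 methyl oxidase Msmo1 was at 185 and 127 CPM against 31.1 and 20.0 CPM (2.50 ± 0.26, adjusted p = 0.0170 by edgeR). These enzymes remove the methyl groups of lanosterol, as does Nsdhl, the C4 decarboxylating dehydrogenase. Nsdhl was at 74.1 and 66.2 CPM against 29.8 and 25.3 CPM (1.24 ± 0.14). Dhcr7, a terminal sterol reductase, was at 73.3 and 57.1 CPM against 21.2 and 11.7 CPM (1.87 ± 0.28). Sc5d, a sterol desaturase of the last steps, was at 127 and 104 CPM against 65.2 and 58.4 CPM (0.78 ± 0.14, adjusted p = 0.0368 by edgeR). All 5 of these enzymes were called.

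The other enzymes of the sterol stage lie in its middle. The C14 reductase Tm7sf2 was at 11.5 and 12.8 CPM against 6.96 and 5.95 CPM (0.81 ± 0.18, adjusted p = 0.0566 by edgeR). The ketoreductase Hsd17b7 was at 33.0 and 25.5 CPM against 19.1 and 15.7 CPM (0.64 ± 0.17, adjusted p = 0.0813 by edgeR). With the mouse as a block both passed the threshold, with adjusted p of 0.0399 and 0.0295. Lbr, a nuclear membrane protein that carries the same reductase activity as Tm7sf2, was at 14.5 and 13.3 CPM against 7.92 and 10.5 CPM (0.48 ± 0.20, adjusted p = 0.191 by edgeR). The isomerase Ebp showed the lowest value of the 19, at 79.4 and 93.5 CPM against 70.1 and 60.8 CPM (0.29 ± 0.16, adjusted p = 0.287 by edgeR). Ebp and Lbr were not called by the blocked fit either, although their ileal and jejunal libraries did not overlap. All 19 enzymes were higher in the ileum in each mouse, with medians of 1.66 in mouse 1 and 1.87 in mouse 2 on the log2 scale.

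**Figure D2:**
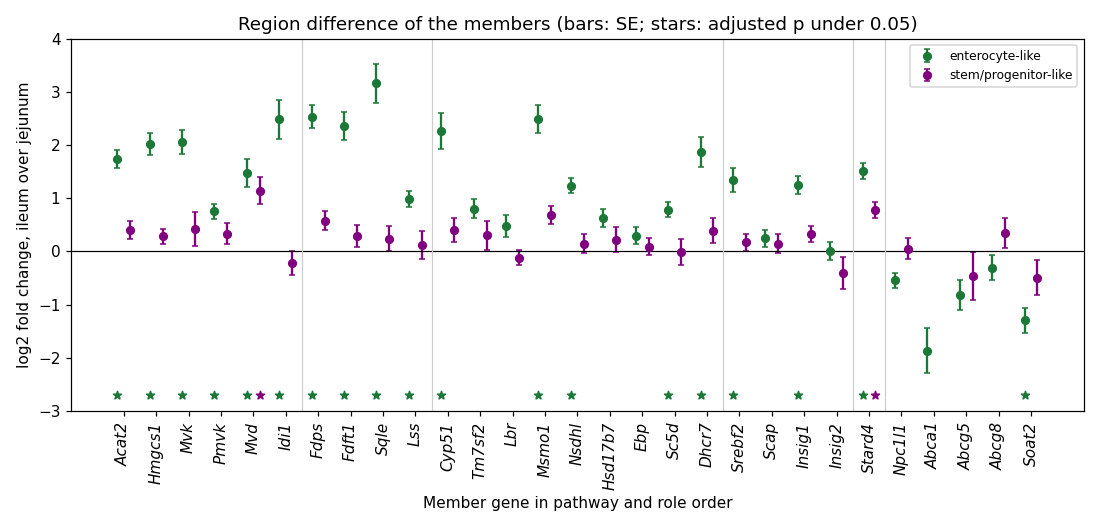
Log2 fold change of the ileum over the jejunum for each member in enterocyte-like and stem/progenitor-like sums, with standard errors from edgeR; stars along the bottom mark an adjusted p under 0.05. The squalene enzymes Sqle and Fdps stand highest in enterocyte-like cells, at 3.17 and 2.54, while Soat2 is at -1.30; Abca1 has no stem/progenitor-like value because its counts were too low.

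Within the sterol-sensing machinery the factor and 1 of its INSIG partners were higher in ileal enterocyte-like cells. Srebf2, which encodes SREBP2 and is its own target, was at 155 and 120 CPM in the ileum against 61.5 and 38.8 CPM in the jejunum (1.35 ± 0.23, adjusted p = 0.0346 by edgeR). Insig1, a sterol-dependent retention factor induced by SREBP2, was at 273 and 196 CPM against 88.4 and 92.7 CPM (1.25 ± 0.18, adjusted p = 0.0248 by edgeR). The remaining 2 genes were not called. Scap, the escort protein, was at 35.4 and 40.2 CPM against 32.0 and 27.0 CPM (0.25 ± 0.16). Insig2, the INSIG gene that does not depend on SREBP2, was at 30.0 and 25.0 CPM against 23.4 and 26.9 CPM, a log2 fold change of 0.01 ± 0.16, and its regions overlapped. Stard4, a soluble carrier that moves cholesterol between membranes and is an SREBP2 target, was at 308 and 269 CPM against 103 and 82.8 CPM (1.52 ± 0.15, adjusted p = 0.0165 by edgeR).

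All 5 genes of uptake, efflux and esterification had log2 fold changes below 0, and 1 of them was called. Soat2, the enterocyte cholesterol acyltransferase, was at 38.6 and 55.6 CPM in the ileum against 99.4 and 116 CPM in the jejunum, 2.28 times higher in the jejunum by region means (-1.30 ± 0.24, adjusted p = 0.0400 by edgeR). Npc1l1, the apical cholesterol importer, was at 217 and 225 CPM against 298 and 299 CPM (-0.54 ± 0.13, adjusted p = 0.0704 by edgeR). Neither gene's regions overlapped. Abca1, the basolateral exporter of the liver X receptor (LXR) programme, was low throughout, at 2.03 and 1.99 CPM against 4.09 and 9.37 CPM (-1.86 ± 0.43, adjusted p = 0.0609 by edgeR). Abcg5 was at 47.3 and 56.6 CPM against 63.8 and 105 CPM (-0.82 ± 0.29, adjusted p = 0.138 by edgeR). With the mouse as a block, Npc1l1, Abca1 and Abcg5 were called lower in the ileum, with adjusted p of 0.0326, 0.0317 and 0.0309. That fit called 20 members higher and 4 lower, among 8.23% and 6.66% of genes. With a term for the mouse, 4 libraries leave little to estimate each gene's variation, so its calls lean on variation shared across genes. Abcg8, the partner of Abcg5, was at 102 and 132 CPM against 116 and 153 CPM (-0.31 ± 0.23), its regions overlapped, and neither fit called it.

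Leaving out a library changed how many members were called. The count of 19 fell to 1 without ileum replicate 1 and 8 without ileum replicate 2, and was 18 and 15 without jejunum replicates 1 and 2. The share of all genes called in either direction moved as well, from 7.15% to 0.406%, 1.75%, 8.16% and 3.36% in that order. In each of these fits a region rests on 1 library that is assumed to vary like the other region.

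Promoter sequences of the members were searched for 3 motifs, whose part in the region differences was not tested. RefSeq promoters of 250 bases before to 50 bases after the start (GRCm38.p6, an older build than the GRCm39 of the submitters' processing notes) were held for 24 of the 29 members. The sterol response element, searched as TCACNCCAC on both strands, was found in 1 member, Hmgcs1, and in 1.44% of all 27025 genes with a promoter. The CCAAT box (CCAAT), bound by NF-Y, was found in 21 of 24 members, or 87.5%, against 41.1% of all genes. The GC box (GGGCGG), bound by Sp factors, was found in 20 of 24, or 83.3%, against 38.2%. NF-Y and Sp factors are known partners of SREBP2 at sterol-regulated promoters. A match to so short a word is a description of these windows, and sterol response elements that differ from the letters searched were not counted. The shares of all genes were taken whether or not a gene was expressed in these cells. Shown are the last 150 bases before the start, 5′ to 3′ on the gene's strand, of Hmgcs1 with its match, of the called genes Idi1 and Insig1, and of Npc1l1, whose fold change was below 0, with matches to any of the 3 motifs in capitals. Hmgcs1 lies at chr13:119690201-119690350 (plus strand), Idi1 at chr13:8885456-8885605 (plus), Insig1 at chr5:28071262-28071411 (plus) and Npc1l1 at chr11:6230246-6230395 (minus).
Hmgcs1: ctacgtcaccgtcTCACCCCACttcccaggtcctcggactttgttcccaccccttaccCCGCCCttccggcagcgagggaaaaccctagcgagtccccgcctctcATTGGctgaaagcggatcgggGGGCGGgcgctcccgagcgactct
Idi1: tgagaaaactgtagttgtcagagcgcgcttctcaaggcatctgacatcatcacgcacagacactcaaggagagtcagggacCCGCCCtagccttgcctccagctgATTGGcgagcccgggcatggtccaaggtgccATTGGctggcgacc
Insig1: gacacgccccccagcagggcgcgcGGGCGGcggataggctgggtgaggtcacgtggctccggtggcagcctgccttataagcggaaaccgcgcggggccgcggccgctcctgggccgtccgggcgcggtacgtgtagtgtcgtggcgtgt
Npc1l1: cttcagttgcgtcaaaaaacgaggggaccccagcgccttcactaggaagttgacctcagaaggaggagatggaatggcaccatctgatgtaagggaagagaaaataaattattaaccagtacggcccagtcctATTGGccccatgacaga
In Hmgcs1 the sterol response element match spanned bases 137 to 129 before the start, followed by 2 GC boxes and 1 CCAAT box. Idi1 held 2 CCAAT boxes and 1 GC box in this window, Insig1 held 1 GC box and Npc1l1 held 1 CCAAT box. No printed matches overlapped.

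Since ileal cells held more UMIs, each cell was thinned to 2000 UMIs. Enterocyte-like cells then held a mean of 3.16 and 2.43 synthesis UMIs in the ileum against 0.877 and 0.686 in the jejunum, 3.58 times more in the ileum by region means. The median cell held 3 and 2 synthesis UMIs in the ileum against 1 and 0 in the jejunum. No synthesis UMI was found in 7.77% and 16.6% of ileal cells against 45.0% and 51.5% of jejunal cells. The thinning left out 46, 273, 683 and 191 shallower cells. Without thinning those shares were 1.17% and 3.46% against 22.4% and 21.0%. The uptake, efflux and esterification genes ran the other way at 2000 UMIs, with means of 0.789 and 0.949 UMIs per ileal cell against 1.16 and 1.32 per jejunal cell. The ratio of synthesis to uptake, efflux and esterification UMIs was thus 4.0 and 2.57 in the ileum against 0.754 and 0.519 in the jejunum. Among cells that had 5000 to 10000 UMIs, a range chosen after the data were seen, the synthesis level differed 3.26-fold between region means. Cells with a mitochondrial share under 10% gave 3.31-fold. The members were chosen with earlier results of these data known, so these sums are described without a p. With 2 libraries per region, an exact permutation test could not pass 0.05 either.

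**Figure D3:**
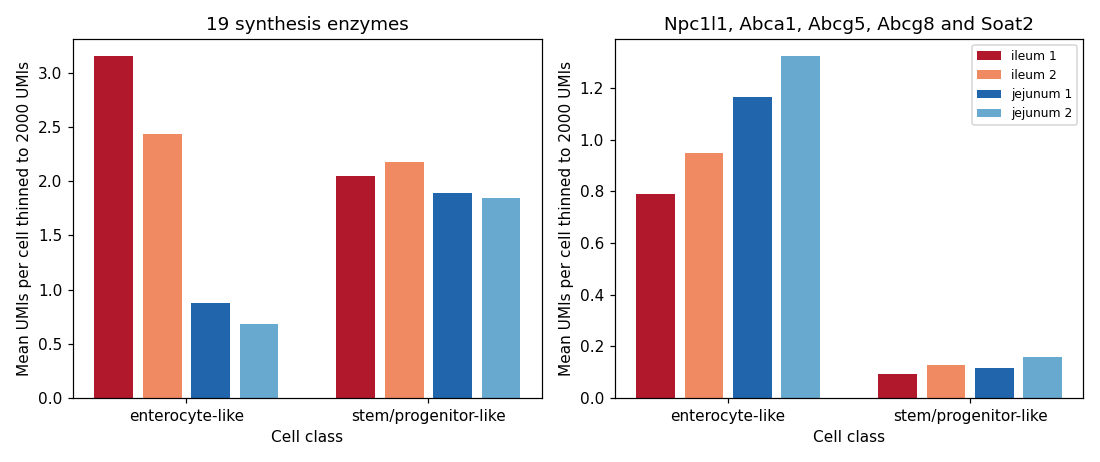
Mean UMIs per cell, after thinning each cell to 2000 UMIs, for the 19 synthesis enzymes (left) and for the uptake, efflux and esterification genes (right), with 1 bar per library. In enterocyte-like cells synthesis runs from 0.686 to 3.16 UMIs with both ileal bars highest; in stem/progenitor-like cells it runs from 1.84 to 2.18.

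The same contrast was seen for Sqle, Npc1l1 and Soat2 in the share of thinned enterocyte-like cells with at least 1 UMI (Clopper-Pearson 95% intervals, counting error only). Sqle had the largest difference of the members and Soat2 was the member called lower, so these genes do not stand for the others. Sqle was detected in 14.1% (13.3 to 15.0) and 11.4% (10.7 to 12.1) of ileal cells and in 1.99% (1.68 to 2.32) and 0.979% (0.723 to 1.30) of jejunal cells. In stem/progenitor-like cells, where Sqle is also used, its share was 10.7% and 12.0% of ileal against 11.8% and 8.04% of jejunal cells. Npc1l1 was detected in 32.8% and 36.1% of ileal and 42.2% and 41.9% of jejunal enterocyte-like cells, and in 3.94% to 4.83% of stem/progenitor-like cells, a class not known for cholesterol absorption. Soat2 was detected in 7.95% and 10.6% of ileal and 18.4% and 19.7% of jejunal enterocyte-like cells, against 1.99% to 5.36% of stem/progenitor-like cells. The shares of Npc1l1 and Soat2 in enterocyte-like cells thus lay above the level in the crypt class in all 4 libraries.

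The difference held within clusters of enterocyte-like cells. In 14 clusters with at least 50 cells in every library, both ileal libraries had a higher summed level of the 19 enzymes than both jejunal ones in 14 of 14, with ratios of region means from 2.29 to 4.51 and a median of 3.36. The 5 uptake, efflux and esterification genes summed lower in both ileal libraries in 14 of 14. Among the clusters, synthesis ran from 1164 to 2427 CPM in ileum replicate 1, 727 to 2308 in ileum replicate 2, 289 to 871 in jejunum replicate 1 and 269 to 677 in jejunum replicate 2. Within a library, clusters with more synthesis tended to have less uptake, efflux and esterification mRNA (Spearman's rho of -0.66 and -0.77 for ileal and -0.70 and -0.43 for jejunal libraries, over 14 clusters that share a library). In the jejunum synthesis also went with the median UMIs of a cluster (rho of 0.59 and 0.73, against -0.02 and 0.12 in the ileum). Another enterocyte-like cluster of 1096 cells held 591 and 497 ileal but 6 and 2 jejunal cells, and it was not among the 14.

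**Figure D4:**
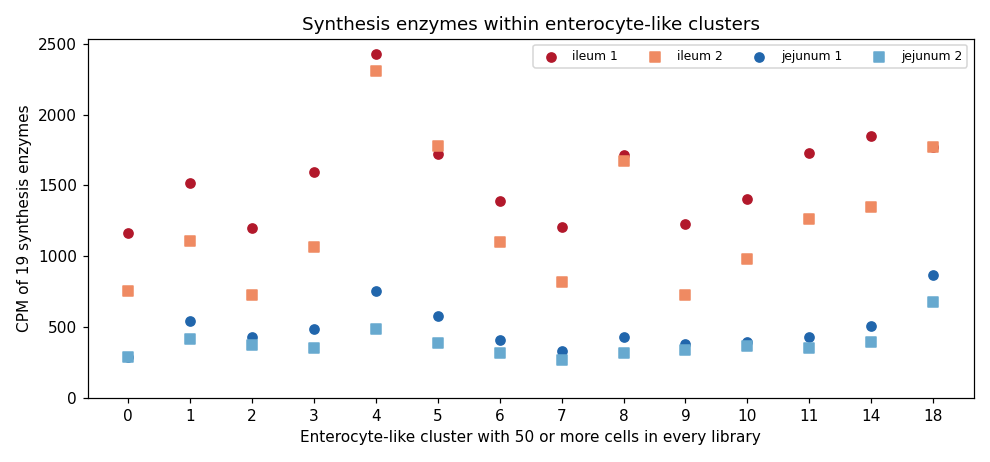
Summed CPM of the 19 synthesis enzymes in each of 14 enterocyte-like clusters, with 1 point per library. Both ileal points lie above both jejunal points in every one of these clusters, and the ratio of region means runs from 2.29 to 4.51.

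In stem/progenitor-like cells the region difference was small. The 19 enzymes summed to 1211 and 1206 CPM in the ileum against 1068 and 929 CPM in the jejunum. Of 28 members tested, 2 were called higher in the ileum and none lower by edgeR, where 1.83% and 1.07% of 12382 genes were. An unadjusted p under 0.05 by edgeR was reached by 6 members and by 1882 of the 12382 genes. DESeq2 called 1 member higher, where 1.22% of genes were, and none lower. Mvd was at 44.5 and 30.5 CPM in the ileum against 19.4 and 13.7 CPM in the jejunum (1.14 ± 0.25, adjusted p = 0.0378 by edgeR), from 43 to 122 UMIs per library. Stard4 was at 231 and 206 CPM against 136 and 109 CPM (0.79 ± 0.15, adjusted p = 0.0201 by edgeR). Both genes kept the regions apart. The blocked fit called 4 members, among 5.56% of genes higher in the ileum, adding Fdps (0.58 ± 0.18, blocked adjusted p = 0.00339) and Msmo1 (0.69 ± 0.17, blocked adjusted p = 0.000511). Neither Mvd nor Stard4 was called without ileum replicate 1 or without jejunum replicate 2, where no member was called.

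The other enzymes had smaller fold changes in the crypt class. Sqle was at 77.7 and 75.2 CPM in the ileum against 80.8 and 45.2 CPM in the jejunum, a log2 fold change of 0.24 ± 0.23. Hmgcs1 was at 182 and 197 CPM against 157 and 145 CPM (0.28 ± 0.14), and Idi1 was at 53.2 and 46.8 CPM against 69.6 and 43.0 CPM (-0.21 ± 0.22). Both ileal libraries lay above both jejunal ones for 14 members and below for 0 of 29, where 27.3% and 18.7% of genes did. The median over the 19 enzymes was 0.30 on the log2 scale, beside 0.01 over all genes tested. The remaining tested members ran from -0.50 for Soat2 to 0.43 for Mvk on the log2 scale. Summed stem/progenitor-like libraries held 2394683 to 3139234 UMIs against 42384839 to 92036897 for enterocyte-like ones, so small differences were less detectable there.

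The region difference was larger in enterocyte-like than in stem/progenitor-like cells for 17 of 29 members. A test of the interaction of region and class called 17 members with a more positive and 1 with a more negative ileal difference in enterocyte-like cells, where 5.48% and 5.16% of 18729 genes were called. The 17 were 14 enzymes, Srebf2, Insig1 and Stard4. Sqle had the largest interaction, at 2.97 ± 0.19 on the log2 scale (adjusted p = 3.01e-12 by edgeR). In the edgeR fit with the mouse instead of the library as the block, its adjusted p was 0.00119. Idi1 followed at 2.72 ± 0.21. Soat2 had the negative one, at -0.85 ± 0.26 (adjusted p = 0.0326 by edgeR). Mvd, called in both classes, had an interaction of 0.37 ± 0.24 and was not called. With the mouse in place of the library as the block, 14 members were called, all with a positive value as for 2.08% of genes, and Lss, Lbr, Sc5d and Soat2 were not (adjusted p of 0.0955, 0.107, 0.0730 and 0.0931). After thinning to 2000 UMIs 11 were called, all positive as for 2.07% of genes, and Soat2 was at -0.44 (adjusted p = 0.649 by edgeR). Mvk, Lss, Lbr, Sc5d, Dhcr7 and Insig1 were not called after thinning either.

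Set against the crypt class of the same library, the enterocyte-like synthesis level was above it in the ileum and below it in the jejunum. The ratio of enterocyte-like to stem/progenitor-like CPM over the 19 enzymes was 1.36 and 1.09 in the ileum against 0.464 and 0.405 in the jejunum. Lbr alone made up 188 and 217 CPM of the crypt-class sum in the ileum and 200 and 226 CPM in the jejunum, which lowers these ratios. In the ileum 14 and 13 of the 19 enzymes were higher in enterocyte-like cells, and in the jejunum 4 and 3 were. Sqle was 7.84 and 9.83 times higher in the crypt class of the jejunum, while in the ileum the classes were within 1.14-fold of each other. Lbr, which also anchors heterochromatin, was 12.9 to 25.3 times higher in the crypt class in all 4 libraries, and Sc5d was 2.04 to 4.43 times higher in enterocyte-like cells in all 4. Npc1l1 was 7.49 to 11.6 times and Abcg5 9.03 to 13.7 times higher in enterocyte-like cells. These class differences are descriptions, because the classes were made from the same cells.

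Enteroendocrine-like cells, 46 to 76 per library, had a synthesis level of 929 and 1001 CPM in the ileum against 933 and 762 CPM in the jejunum. These values came from 185 to 293 UMIs per library, and the spread within the jejunum was wider than the difference between the region means. Their Sqle level was 115 ± 14.2 CPM (SD, n = 2) in the ileum and 90.1 ± 41.5 CPM in the jejunum.

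Genes next to the pathway gave a partial parallel in enterocyte-like cells, where 4.11% of all genes tested were called higher in the ileum and 3.04% lower. Of 9 SREBP targets in fatty acid synthesis, 5 were called higher in the ileum and none lower: the desaturases Fads1 (1.98 ± 0.28) and Fads2 (1.48 ± 0.17), the carboxylase Acaca (1.40 ± 0.18), the synthase Fasn (1.33 ± 0.17) and the acetyl-CoA synthetase Acss2 (1.09 ± 0.17). The median of that list was 1.09. Of 9 genes of the isoprenoid branches, which draw on the same intermediates for ubiquinone, dolichol and prenylation, none was called in either direction by edgeR. In that list 4 had an unadjusted p under 0.05, as did 5621 of the 19754 genes tested, and the median was 0.29. Of 8 genes of SREBP processing and sterol sensing none was called either, with 1 at an unadjusted p under 0.05 and a median of 0.06. Among 12 genes of sterol transport and lysosomal release, 3 were called higher and 1 lower. Npc2, the lysosomal cholesterol carrier, was at 681 and 552 CPM against 220 and 202 CPM (1.43 ± 0.15). Soat1, the acyltransferase related to Soat2, was at 198 and 188 CPM against 88.8 and 105 CPM (0.88 ± 0.15), opposite to Soat2. Nceh1, a cholesteryl ester hydrolase, was at 0.67 ± 0.14, and Lipa, the lysosomal acid lipase, was lower at -0.78 ± 0.15.

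Of 7 LXR and oxysterol genes, 6 were tested in enterocyte-like cells and 1 was called, where 7.15% of all genes tested were called in either direction. Mylip, an LXR-induced ubiquitin ligase, was at 9.29 and 6.44 CPM in the ileum against 3.43 and 3.26 CPM in the jejunum (1.11 ± 0.22, adjusted p = 0.0456 by edgeR). It was also called in stem/progenitor-like cells (1.19 ± 0.28, adjusted p = 0.0466 by edgeR). In stem/progenitor-like cells the other called gene of these lists in the fit without a block was Me1, malic enzyme, which was lower in the ileum (-2.55 ± 0.38). The factor Srebf1, which drives fatty acid synthesis, was at 97.1 and 72.3 CPM in ileal against 78.8 and 121 CPM in jejunal enterocyte-like cells, and its regions overlapped.

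The libraries are paired by mouse, and the mouse as a block added calls in these lists. With it, 8.23% of all genes were called higher and 6.66% lower in ileal enterocyte-like cells. In enterocyte-like cells Me1, at 25.8 and 45.0 CPM in the ileum against 67.4 and 110 CPM in the jejunum, was then called lower (blocked adjusted p = 0.00435, against 0.0801 without the block, both by edgeR), so that the fatty acid list held 5 higher and 1 lower. In the isoprenoid list the block called Fntb, a farnesyltransferase subunit, higher and Pdss1, of ubiquinone side chain synthesis, lower (blocked adjusted p of 0.0276 and 0.0298 by edgeR). In the LXR list it called Abcg1 higher and the receptor gene Nr1h2 lower (blocked adjusted p of 0.0131 and 0.0328 by edgeR). Abcg1 was at 8.94 CPM in ileum replicate 1 and under 1 CPM in the other libraries. In stem/progenitor-like cells the block added Npc2 and Elovl6 as higher and Scarb1, Osbp and Nr1h2 as lower in the ileum, among 10% of all genes called in either direction.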

How the data were processed

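UMI counts for each gene in each called cell were made by the authors from PIPseq 3′ libraries with PIPseeker at sensitivity level 3, and were deposited without normalization. The submitters' processing notes name GRCm39, and the PIPseeker version was not given in the sources used here. The study's limits were applied: a gene had to be seen in 3 cells, and a cell needed between 1000 and 6000 genes with less than 20% mitochondrial UMIs. Seurat 5.3.0 (R 4.3.3) took 2000 variable genes, integrated the libraries by canonical correlation and clustered 30 components at resolution 1. Of the members, 6 were among the variable genes, and clustering without the members was tried. Clusters were named from marker lists, with thresholds chosen once the data were known, and 432 cells of an unnamed cluster entered no class. Scrublet in scanpy 1.11.5 (Python 3.11.15) called 5 to 10 doublets per library, too few to be relied on, so none was removed and leaving out the top 6% of scores was tried.

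For each library and class the counts were summed, filtered with filterByExpr and scaled by TMM. Region was the single term of a quasi-likelihood fit in edgeR 4.0.16, and p-values were adjusted by Benjamini-Hochberg over all genes tested. The interaction model held 8 sums and a term for each library. DESeq2 1.42.0 was an alternative. The fits were tested on simulated data. The unit is the mouse, with 2 per region. Replicate numbers pair the libraries, since both segments came from the same animal. Deviations from the region means correlated between the libraries of a mouse, at 0.29 for enterocyte-like sums and 0.24 for stem/progenitor-like sums. The members and lists were chosen with earlier results of these data known. All 29 members are named, with genes of the related lists where a region test called them, and Srebf1, which was chosen after its values were seen.

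Motifs were searched in RefSeq promoters (GRCm38.p6), counting a gene once if any of its promoters held a match. Intervals cover counting error only.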

Additional observations from a re-analysis of the deposited data

Results flagged for a closer look

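For 18 members the ileal difference differed between enterocyte-like and stem/progenitor-like cells by the interaction test of edgeR, with an adjusted p under 0.05. Of all 18729 genes tested, 10.6% were called in either direction. In log2 units the extra ileal difference in enterocyte-like cells was 1.35 for Acat2, 1.73 for Hmgcs1, 1.66 for Mvk and 2.72 for Idi1 in the mevalonate stage. In the squalene stage it was 1.96 for Fdps, 2.08 for Fdft1, 2.97 for Sqle and 0.87 for Lss. In the sterol stage it was 1.90 for Cyp51, 0.61 for Lbr, 1.83 for Msmo1, 1.09 for Nsdhl, 0.79 for Sc5d and 1.53 for Dhcr7. Outside the enzymes it was 1.19 for Srebf2, 0.92 for Insig1, 0.73 for Stard4 and -0.85 for Soat2.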

How the results depend on the processing

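The count of 19 members called in enterocyte-like cells was 11 without the filter on low counts, where 1.78% of all genes were called against 7.15% with it, and ran from 1 to 18 when a library was left out, with 0.406% to 8.16% of genes called. Without ileum replicate 1 Fdps was the member called. The cause was not tested. In stem/progenitor-like cells the count of 2 was 1 with DESeq2, 1 without the highest 6% of doublet scores, 1 with clusters made without the members and 4 with the replicate block, and ran from 0 to 5 when a library was left out; the share of all genes was 2.9%, then 2.12%, 1.98%, 1.72% and 10%, and 1.36% to 5.36%. The count of 18 interactions, among 10.6% of genes, was 11 in cells thinned to 2000 UMIs, among 4.29%, and ran from 14 to 18 when a library was left out, among 5.33% to 9.97%. The replicate block changed no region or interaction call of a member beyond those given with the results.

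The gap between regions in enterocyte-like cells with a synthesis UMI, 36.1 percentage points at 2000 UMIs, was 19.3 points at 4000 UMIs, 19.4 points without thinning and 9.48 points among cells with 5000 to 10000 UMIs, an alternative added after the data were seen; shares saturate as depth rises. The median of the squalene stage ran from 2.22 to 2.77 when a library was left out. The sign turned for Lbr at -0.22 over all kept cells without classes, for Insig2 at -0.027 with the stricter mitochondrial limit, and for Mvd at -0.18 in the interaction after thinning. Leaving out a library moved Insig2 from -0.11 to 0.17 in enterocyte-like cells, and Idi1 from -0.53 to 0.16 and Sqle from -0.14 to 0.70 in stem/progenitor-like cells.

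Scaling to library totals moved the median of all genes in enterocyte-like cells from -0.01 to 0.10 on the log2 scale and the split of calls from 812 higher and 600 lower to 1222 and 572; 19 members were then called higher and 1 lower. Interaction calls split 1027 and 966, and 1199 and 701 under totals. The block raised the calls among all genes from 1412 to 2940 in enterocyte-like and from 359 to 1242 in stem/progenitor-like cells, and DESeq2 gave 3102 and 263. With 2 mice, and in the crypt class 396 to 432 cells per library, small differences were not detectable.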
